A study of Mus musculus with 27 samples.

Results

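The nuclear respiratory chain subunits are the proteins of mitochondrial complexes I to V whose genes lie on the chromosomes of the nucleus. Their mRNAs were followed in 27 mouse RNA sequencing libraries. Members were chosen by symbol alone: genes starting with Nduf, Uqcr, Atp5, Sdha to Sdhd or Cox4 to Cox8, without pseudogenes and without the Ndufaf and Sdhaf assembly factors. This gave 85 symbols in each of 3 count tables, out of 46078 gene rows in 2 of the tables and 22906 in the third. By prefix, 38 belonged to complex I, 4 to complex II, 8 to complex III, 18 to complex IV and 17 to complex V. A few belong in name more than in place: Ndufa4 is now counted with complex IV, Ndufa4l2 is its paralog, Cox7a2l helps complexes III and IV associate, and Atp5sl is now named as an assembly factor of complex I, with Atp5s as its relative.

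The libraries came from 2 models of T cell acute lymphoblastic leukaemia built on TAL1, a transcription factor of blood stem cells that is switched on in many such leukaemias. The first model was thymus of C57BL/6 mice that had received a bone marrow transplant, with 3 mice in each of 4 groups. Those groups were labelled as TAL1 overexpression, empty vector, AKT(E17K) together with TAL1, and AKT(E17K) alone, where AKT(E17K) is a constantly active form of the growth kinase AKT1. The second was the ProT cell line, a mouse T cell precursor line in which TAL1 is described as switched on by 4-hydroxytamoxifen through CreER and LoxP, with 3 libraries at each of 0, 6, 12, 18 and 24 h. No time course of 4-hydroxytamoxifen without the TAL1 construct was analysed here, so time, the drug and TAL1 cannot be told apart in ProT cells.

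Complex I takes electrons from NADH and complex II takes them from succinate, a step it shares with the citrate cycle. Both hand them to ubiquinone, complex III passes them on to cytochrome c, and complex IV gives them to oxygen. Complexes I, III and IV pump protons as they do so, and complex V, the ATP synthase, lets the protons back and makes ATP. Mitochondrial DNA encodes some central part of every complex except complex II, so most complexes are built from products of both genomes. Dividing cells, thymocytes among them, use the chain for ATP and also to make the aspartate that nucleotide synthesis needs.

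Depth ranged from 2073752 to 11302098 counts in genes per library, and the members together took 39319 to 73054 counts per library in the AKT(E17K) table, 39264 to 124385 in the empty vector table and 23959 to 83751 in the ProT table. Levels are given as CPM, which are counts scaled to a common normalised library total, and levels were not compared between tables, since these were made and scaled apart. Counts of the mouse Tal1 gene did not follow the labels: it had 0 counts in all 6 thymus libraries labelled with TAL1. In ProT cells it stood at 1963 to 2068 CPM at 24 h, below the 2895 to 3098 CPM at 0 h. The labels do not say whether TAL1 from the construct would be counted on this mouse gene. These counts therefore do not show whether the construct was expressed. Groups are therefore named by their labels. All 12 thymocyte markers had counts in every thymus library, whereas ProT libraries had counts for 8 to 11 of the 12. In ProT cells, library 1 of 6 h and library 1 of 12 h stood apart from the others of their times, and in the AKT(E17K) group replicate 1 held more counts of other tissues' markers than the other mice of its table. Counts, medians and named members that moved without these libraries are given beside the results. Replicate libraries of ProT cells are not stated to be separate cultures, so their p-values may reflect no more than technical spread among these libraries.

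After the filter on low counts, 79 of the 85 members remained in the empty vector table, 78 in the AKT(E17K) table and 79 in the ProT table. Those that did not pass were mostly forms made in other tissues. Cox7b2 had 0 counts in all 27 libraries, Cox8b had 3 counts in all and Cox8c had 1, and the lung form Cox4i2 had 4 counts in the empty vector table. Sdhd, which encodes a membrane anchor of complex II, did not pass in the AKT(E17K) table, where it had 37 counts over 6 libraries. Of the rest, Atp5s and Cox7a1 failed in the AKT(E17K) table, Cox6a2 and Ndufa4l2 in the empty vector table, and Cox6b2 and Cox7a1 in the ProT table. In bulk RNA, fewer cells of a type and less RNA per cell cannot be told apart, and this holds for every level below.

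In ProT cells 24 h after 4-hydroxytamoxifen, 13 of 79 members were higher than at 0 h and 5 were lower. Over all 13610 genes tested, 9.43% were higher and 9.3% were lower, so the members' share was above that of all genes for higher calls and below it for lower calls. The members' median log2 fold change was 0.09, against -0.01 over all genes, and it was 0.05 without 0 h library 1. The higher members came from every complex, with 4 in complex I, 2 in complex II, 1 in complex III, 3 in complex IV and 3 in complex V. The lower ones were 2 in complex I, 1 each in complexes III, IV and V, and none in complex II. All calls rest on edgeR's quasi-likelihood test with Benjamini-Hochberg adjustment over all genes and a threshold of 0.05, with n = 3 libraries per time.

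**Figure D1:**
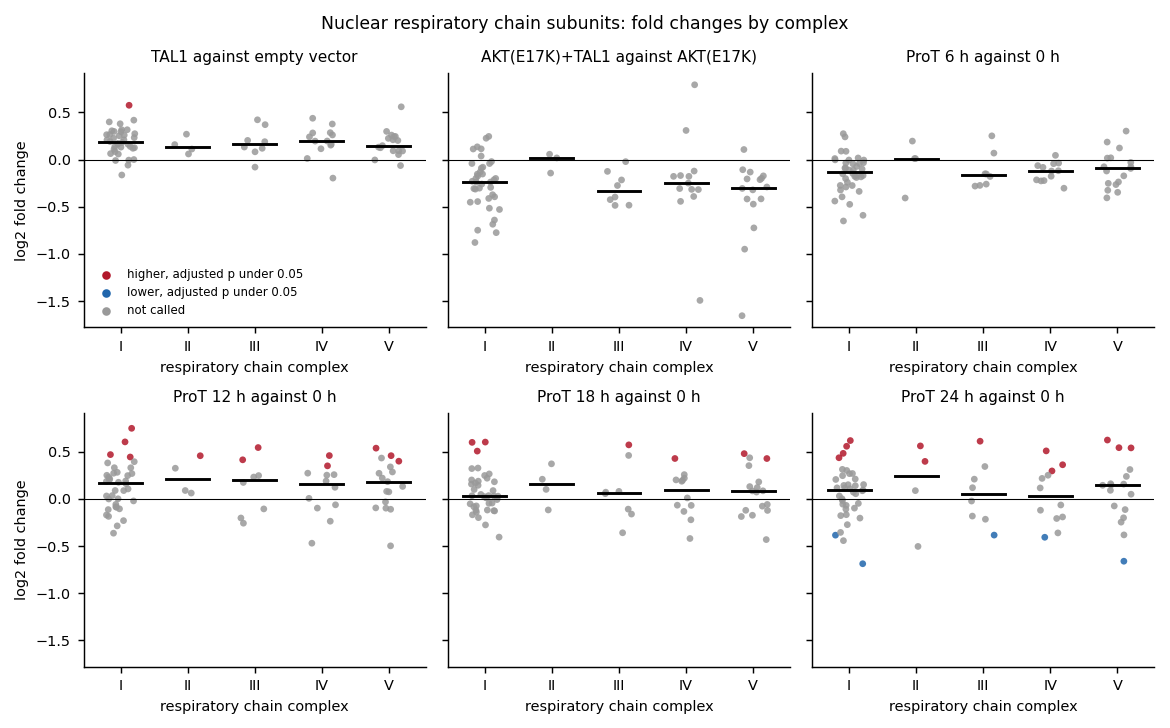
Log2 fold change (vertical axis) of each tested member by respiratory chain complex I to V (horizontal axis) in 6 comparisons; each point is a gene and the black bar is the median. Red points (higher) appear in every complex at 24 h, where 13 members were higher and 5, in blue, were lower; the AKT(E17K)+TAL1 panel has no coloured point.

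In complex I, 4 subunits were higher, among them the accessory subunit Ndufa9 and the core subunit Ndufv1. Ndufa9, which lies at the joint between the arms, stood at 57.2, 54.2 and 59.6 CPM at 24 h, against 32.2, 41.4 and 37.0 CPM at 0 h. This was a log2 fold change of 0.62 (SE 0.14, adjusted p = 0.00283), and the groups did not overlap. Ndufv1, which binds FMN and takes the electrons of NADH, was higher by 0.43 on the log2 scale (adjusted p = 0.0126). Ndufa10, an accessory subunit named here after its values were seen, was higher by 0.48. Ndufs1, Ndufs7 and Ndufv2, also core subunits, were not called.

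In complex II, the iron-sulfur subunit and a membrane anchor were higher, and the catalytic flavoprotein Sdha was not called. Sdhc, the anchor, had 69.0, 68.6 and 63.9 CPM at 24 h, against 44.8, 42.8 and 48.7 CPM at 0 h, a log2 fold change of 0.56 (SE 0.13, adjusted p = 0.00279). Sdhb, the iron-sulfur subunit that passes electrons from Sdha to ubiquinone, stood at 114, 121.2 and 141 CPM at 24 h, against 82.0, 92.7 and 109 CPM at 0 h (log2 fold change 0.40, adjusted p = 0.0373). Sdhd, the partner anchor of Sdhc, had a log2 fold change of -0.50 and was not called. The pair of anchors thus lay on opposite sides of 0, and the difference between them was not tested.

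In complex III, Uqcrc1 was higher and Uqcr10 was lower. Uqcrc1, a large core protein on the matrix side, lies at chr9:108936633-108949623 on the plus strand of GRCm38. It had 83.3, 80.1 and 82.4 CPM at 24 h, against 50.2, 50.5 and 59.2 CPM at 0 h, a log2 fold change of 0.61 (SE 0.13, adjusted p = 0.00198). Its levels at 12 and 18 h lay above every 0 h library as well, with 78.4, 68.8 and 66.8 CPM at 12 h and 87.0, 73.2 and 78.8 CPM at 18 h. Uqcr10, a small membrane subunit of the complex, stood at 150, 154 and 167 CPM at 24 h, against 171, 244 and 198 CPM at 0 h (log2 fold change -0.38, adjusted p = 0.0478). The iron-sulfur protein Uqcrfs1 was called at 12 h but not at 24 h.

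In complex IV, Cox8a, Cox6a1 and Cox5a were higher and Cox7c was lower, all of them nuclear accessory subunits around the catalytic core that mitochondrial DNA encodes. Cox8a had 359, 366 and 335 CPM at 24 h, against 213, 249 and 281 CPM at 0 h (log2 fold change 0.51, SE 0.12, adjusted p = 0.00463). Cox6a1 was higher by 0.36 and Cox5a by 0.30 on the log2 scale. Cox7c fell to 274, 298 and 287 CPM at 24 h, against 387, 391 and 361 CPM at 0 h (log2 fold change -0.41, adjusted p = 0.0449). Cox4i1, Cox5b and Cox6c were not called. Ndufa4, a small subunit first assigned to complex I, fell to 59.7, 78.2 and 73.2 CPM at 24 h, against 131, 106 and 104 CPM at 0 h, a log2 fold change of -0.69 (SE 0.19, adjusted p = 0.0138), which was the most negative value among the called members. In 6 h library 1 Ndufa4 stood at 47.4 CPM, below every 24 h library, while the other 6 h libraries had 101 and 98.6 CPM.

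In complex V, 3 subunits were higher and 1 was lower, and 2 of these, Atp5d and Atp5e, are neighbours in the rotating stalk. Atp5d, the delta subunit of the stalk, lies at chr10:80138632-80145818 on the plus strand and had 177, 192 and 179 CPM at 24 h, against 111, 118.5 and 125 CPM at 0 h. Its log2 fold change of 0.62 (SE 0.13, adjusted p = 0.00124) had the smallest p among the members. Atp5e, the epsilon subunit that binds delta, lies at chr2:174461072-174464105 on the minus strand and fell to 138, 150 and 181 CPM at 24 h, against 247, 286 and 210 CPM at 0 h (log2 fold change -0.66, SE 0.19, adjusted p = 0.0153). Atp5a1, the alpha subunit of the catalytic head, stood at 396, 408 and 393 CPM at 24 h, against 241, 269 and 310 CPM at 0 h (log2 fold change 0.54). Atp5b, its catalytic partner beta, had a log2 fold change of 0.31 and was not called (adjusted p = 0.0757). Atp5g2, which encodes 1 of 3 precursors of the membrane ring subunit c, was higher by 0.54, with 131, 137 and 127 CPM at 24 h against 80.3, 98.9 and 91.9 CPM at 0 h.

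Of the 13 higher members at 24 h, the 8 with the highest log2 fold changes, Atp5d, Ndufa9, Uqcrc1 and Sdhc among them, were followed through 12 alternatives, and each passed the threshold in all of them. The other higher members, Ndufv1, Ndufa10, Sdhb, Cox6a1 and Cox5a, were not followed in this way. None of them passed the threshold without 0 h library 2. The 5 lower members were followed through the same 12 alternatives, and none passed in all 12. DESeq2 called 13 higher and 2 lower, and without both libraries that stand apart 17 were higher and 9 lower. Calls over all genes then numbered 3580, against 2549 with all libraries. The number of lower members was 0 without 24 h library 1 and 1 without 24 h library 2. It was 2 without 24 h library 3, 0 h library 1 or 0 h library 2. The number of higher members was 8 without 0 h library 2. Calls over all genes fell too, to 1682, 1665 and 1913 without 24 h library 1, 2 or 3. They fell to 1562 and 1447 without 0 h library 1 or 2, from 2549. Scaling by library totals alone gave 23 higher and 2 lower members. That scaling put the median over all genes at 0.17 and that of the members at 0.28, and 80.5% of the genes called over the whole table were then higher, against 50.3% with the main scaling. Summed CPM of 15 proliferation genes was 2519 to 2569 at 24 h and 1601 to 1676 at 0 h, with 11 of the 15 higher and a count for all 15 in every library. The 6 myeloid markers, all with counts, summed to 48.3 to 56.4 CPM at 24 h and 69.9 to 79.0 CPM at 0 h. Of these, 2 were called lower at 24 h, S100a8 (log2 fold change -1.28, adjusted p = 0.00023) and S100a9 (-1.42, adjusted p = 0.000246), as they were at 12 and 18 h. Reads in no feature made up 17.8% to 18.4% of reads, summary lines included, at 24 h and 21.1% to 22.2% at 0 h, without overlap. The part of these in the members' changes was not tested.

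**Figure D2:**
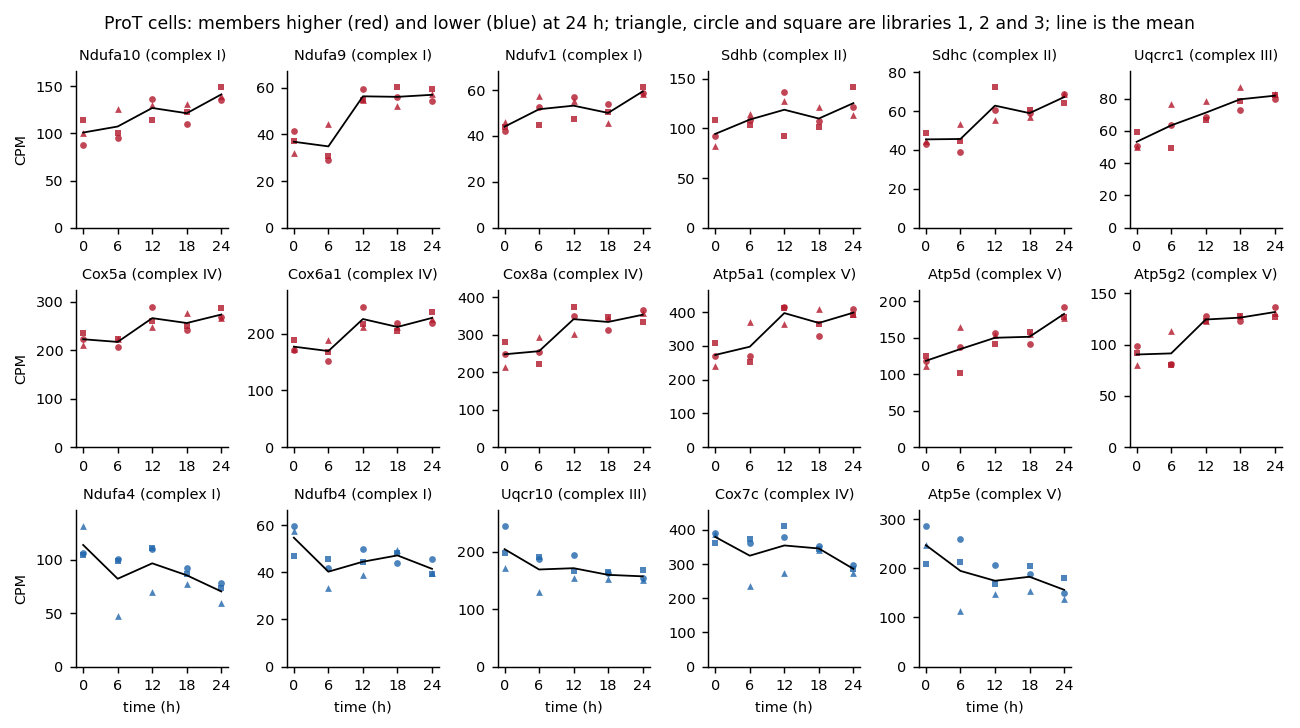
CPM (vertical axis, from 0) against time after 4-hydroxytamoxifen in hours (horizontal axis) for 17 of the 18 members called at 24 h; points are single libraries (triangle 1, circle 2, square 3) and the line is the mean of 3. Ndufa9, among the 12 higher members drawn (red), reaches 54.7 CPM or more in every 12 h library, and 6 h library 1 is the lowest 6 h library for all 5 lower members (blue), with Ndufa4 at 47.4 CPM.

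At 6 h no member had yet passed the threshold. None of the 13610 genes did (0%) in edgeR's quasi-likelihood test, in either direction, while 1 member was higher and 12 were lower at an unadjusted p under 0.05, against 2.6% and 2.79% of all genes, and DESeq2 also called 0 members. The members' median log2 fold change was -0.12, against 0.00 over all genes, and 17 of 79 were positive. With library totals alone the median was -0.03. In 13 members every 6 h library lay below every 0 h library and in 0 it lay above, while 4.64% and 4.75% of all genes did so. The smallest p among negative values belonged to the membrane arm subunits Ndufb6 and Ndufb4 of complex I and to Atp5f1, a subunit of the stator of complex V. Ndufb6 had 47.9, 60.0 and 56.1 CPM at 6 h, against 79.5, 92.4 and 74.6 CPM at 0 h, a log2 fold change of -0.59 (adjusted p = 0.908). Atp5f1 had a log2 fold change of -0.41 and Ndufb4 one of -0.44. Among positive values Ndufv1 (0.24) and Uqcrc1 (0.25) were of the 3 with the smallest p.

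At 12 h, 12 members were higher than at 0 h and 0 were lower, against 6.33% and 5.69% of all genes. The median was 0.18, against -0.01 over all genes. It was 0.07 without 12 h library 2 and 0.36 with library totals alone. Unadjusted p was under 0.05 for 27 positive and 2 negative members, against 13.9% and 13.5% of all genes. DESeq2 called 0 members lower. The 12 that edgeR called higher included Ndufv3, Ndufa9 and Ndufb3 of complex I, Sdhc of complex II, and Uqcrfs1 and Uqcrc1 of complex III. They also included Cox8a and Cox6a1 of complex IV, and Atp5a1, Atp5g2 and Atp5j of complex V. Ndufv3, an accessory subunit of the NADH arm at chr17:31520115-31531331 on the plus strand, had the largest value, with 123.8, 190 and 199 CPM at 12 h against 96.6, 103 and 105 CPM at 0 h (log2 fold change 0.75, SE 0.14, adjusted p = 0.000644). Ndufv3 then stood at 161, 154 and 148 CPM at 18 h and at 110, 120.9 and 145 CPM at 24 h, where it was not called. The number of higher members was 2 without 0 h library 1, 4 without 0 h library 2, 7 without 12 h library 2 and 16 without 12 h library 1. Calls over all genes in these fits were 918, 819, 1118 and 1521, in that order, against 1635 with all libraries. Without both libraries that stand apart 25 members were higher and 1 lower, while calls over all genes numbered 2224. With library totals alone the number of higher members was 34, and 85.8% of all genes called were then higher, against 52.7% with the main scaling. The 12 h call of Uqcrc1 was lost without 12 h library 1, and also without both libraries that stand apart.

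At 18 h, 7 members were higher and 0 were lower, against 4.89% and 3.92% of all genes, and the median was 0.05. It was 0.03 without 0 h library 1, 0.10 without 0 h library 2 and 0.20 with library totals alone. In 14 positive and 3 negative members the unadjusted p was under 0.05, against 12.2% and 12% of all genes. DESeq2 called 0 members lower. The called ones included Ndufv3, Ndufa9, Uqcrc1, Cox8a, Atp5a1 and Atp5g2. On the log2 scale Uqcrc1 was higher by 0.57 (adjusted p = 0.00742) and Ndufa9 by 0.60 (adjusted p = 0.008). The 12, 18 and 24 h comparisons share the 0 h libraries, so their calls are not independent of each other. Counted side by side, 17 members were higher at 1 or more times and 6 were higher at all 3 later times, among them Ndufa9, Uqcrc1, Cox8a, Atp5a1 and Atp5g2. Of these 5, only Ndufa9 kept its call in all 12 alternatives at each time. At 12 h the call was lost in 5 alternatives for Uqcrc1, 3 for Cox8a and 1 each for Atp5a1 and Atp5g2. At 18 h it was lost in 4 each for Cox8a and Atp5a1, and in 2 each for Uqcrc1 and Atp5g2. Of the members 5 were lower at any time, and 0 were called in both directions. These counts over several times were not made for all genes, so no background share stands beside them. At 18 h, 2 members were higher without 18 h library 1, 3 without 0 h library 1 or 0 h library 2, and 4 without 18 h library 3. Calls over all genes in these fits were 419, 619, 471 and 936, in that order, against 1200 with all libraries. Without both libraries that stand apart 13 members were higher and 3 lower, with 2061 calls over all genes. With library totals alone 11 were higher, with 82.0% of all called genes higher against 55.5% in the main scaling.

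A comparison of 12 h with 6 h, added after the values were seen, uses no 0 h library. It found 20 members higher and 0 lower, against 5.54% and 5.31% of all genes, with a median of 0.26 and 72 of 79 positive. Positive members with an unadjusted p under 0.05 numbered 39 and negative ones 0, against 13.1% and 12.8% of all genes. DESeq2 called 0 members lower. Complex I held 9 of the 20, complex V 5, complex IV 3, complex III 2 and complex II 1. Atp5j, the coupling factor F6 of the stator, had 104, 165 and 149 CPM at 12 h, against 76.0, 86.4 and 91.2 CPM at 6 h, a log2 fold change of 0.72 (SE 0.13, adjusted p = 0.000552). Ndufc1, a small membrane arm subunit, was higher by 0.59, and Ndufb3, another one, by 0.58. The count was 8 without 6 h library 3 or 12 h library 2, 10 without 6 h library 2 and 11 without 12 h library 3. It was 31 without 12 h library 1, and 39, with 1 lower, without both libraries that stand apart. Calls over all genes in the single-library fits were 798, 890, 657, 1023 and 1698, in that order. Leaving out both libraries that stand apart raised the calls over all genes from 1477 to 2719. Library totals alone put 70.2% of all called genes higher, against 51.1%. Tested over all times at once, 21 of the 79 members changed, against 18% of all genes.

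Mitochondrially encoded subunits, the partners of the nuclear members, fell in the same libraries. At 24 h, 12 of the 13 were lower than at 0 h and 0 were higher, with log2 fold changes of -0.88 to -0.33 and a median of -0.68. For example, mt-Co1, the catalytic subunit of complex IV, had 4426, 4292 and 4893 CPM at 24 h, against 8821, 7613 and 7414 CPM at 0 h (log2 fold change -0.81, SE 0.19, adjusted p = 0.0045). Only mt-Nd6, at -0.33, was not called. Summed over the 13 genes, the mitochondrial mRNAs came to 49785 ± 2699 CPM at 24 h and 76604 ± 7128 CPM at 0 h, while the 85 nuclear members came to 11022 ± 586 CPM at 24 h and 10677 ± 623 CPM at 0 h (mean ± SD, n = 3 each). The ratio of nuclear to mitochondrial sums was 0.215, 0.227 and 0.222 at 24 h, against 0.118, 0.153 and 0.150 at 0 h, and the groups did not overlap. In 6 h library 1 the ratio was 0.183, above the other 6 h libraries at 0.127 and 0.118. The count of lower mitochondrial genes at 24 h was 7 without 0 h library 1 and 10 when only library totals were used for scaling.

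**Figure D3:**
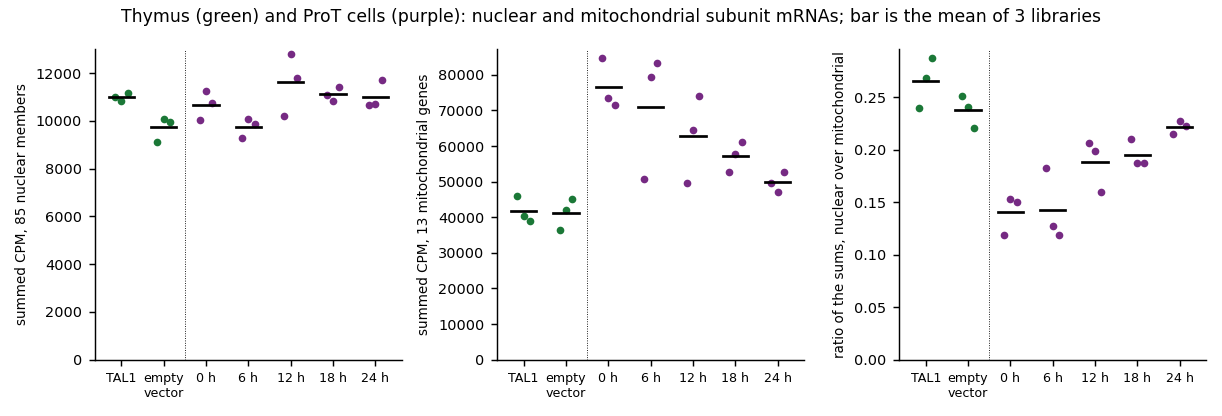
Summed CPM of the 85 nuclear members, summed CPM of the 13 mitochondrial genes and the ratio of the sums (vertical axes, from 0) by group (horizontal axis); points are libraries and bars are means of 3. In ProT cells the nuclear sum is 11022 CPM at 24 h and 10677 CPM at 0 h, while the mitochondrial sum is 49785 CPM at 24 h and 76604 CPM at 0 h.

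Among related gene lists in ProT cells at 24 h, the citrate cycle had 9 of 16 genes higher and 0 lower, with a median of 0.39. Fh1, which encodes fumarase, the enzyme after complex II in the cycle, had 56.0, 62.9 and 58.8 CPM at 24 h, against 41.8, 31.5 and 41.7 CPM at 0 h (log2 fold change 0.63, adjusted p = 0.00109). Cs, the citrate synthase, was higher by 0.60. Of 48 assembly factors tested, 1 was higher and 1 lower: Ndufaf3, which acts early in complex I assembly (0.79, adjusted p = 0.0045), and Tmem126b, which acts on its membrane arm (-0.74, adjusted p = 0.0341). Of 14 genes for electron carriers and ubiquinone synthesis, Etfb alone was higher (0.36, adjusted p = 0.0463), and of 13 regulators Pprc1 alone was higher (0.51, adjusted p = 0.0336). The mitochondrial ribosome had 7 of 77 higher and 3 lower. Cytosolic ribosomal proteins, a list added after the values were seen, had 7 of 87 higher and 11 lower, with a median of -0.16. Beside each of these lists, 9.43% of all genes tested were higher at 24 h and 9.3% were lower.

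The members called higher and lower at 24 h differed in coding length, a pattern described after the values were seen. The 13 higher members had a median coding length of 846 nt, the 5 lower ones 192 nt and the 61 others 411 nt. Over the 79 members, Spearman's rho between coding length and log2 fold change was 0.42 at 24 h and 0.59 at 6 h, against -0.05 and 0.12 over 10538 other genes tested. It was 0.36 at 12 h and 0.40 at 18 h, and all 4 of these share the 0 h libraries. Summed CPM of members of 1200 nt or more, over that of members under 300 nt, was 0.475 in 6 h library 1. In the other 6 h libraries this ratio was 0.280 and 0.283, within the 0.247 to 0.320 of the 0 h libraries. At 24 h it was 0.363 to 0.411. The part of 6 h library 1 in the 6 h correlation was not tested. Between 12 and 6 h, without the 0 h libraries, rho was -0.01 over the members and -0.15 over other genes, and in TAL1 against empty vector thymus it was -0.22 over the members. These are correlations across genes, which share libraries and are not replicates. The 19 members under 300 nt had a median log2 fold change of -0.17 at 24 h, near the -0.15 of 213 other genes of that length. The 9 members of 1200 nt or more had a median of 0.31, against 0.02 for 6040 others.

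**Figure D4:**
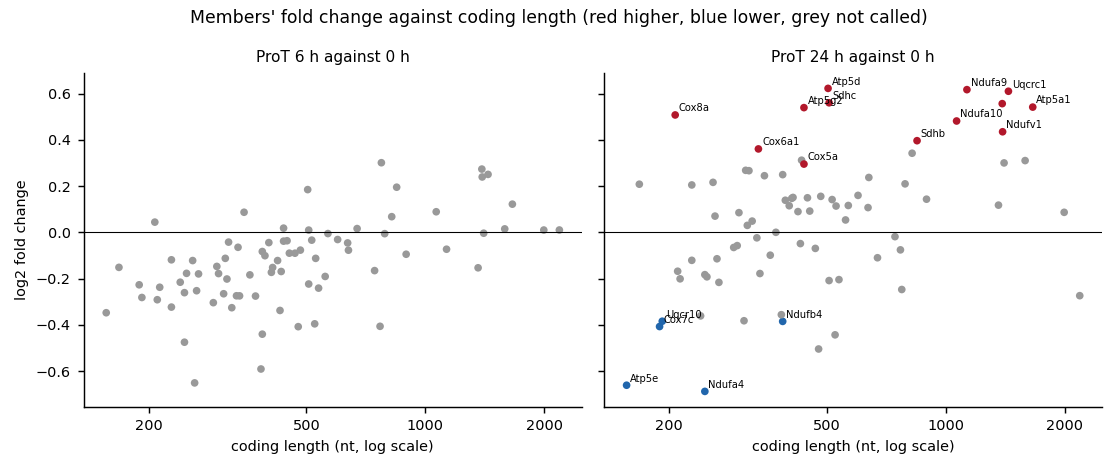
Log2 fold change (vertical axis) of each tested member against its coding length in nucleotides (horizontal axis, log scale) in ProT cells at 6 h and at 24 h against 0 h; each point is a gene. Called members are coloured, most of them are named, and the 5 lower ones (blue) lie among the short members, with a median of 192 nt.

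Promoter sequences are given for 4 members to show the motifs that the family carries and the members that moved. RefSeq windows of 300 bases on GRCm38.p6, from 250 before to 50 after the start, matched 67 of the 85 members. On both strands, the motif GCGCANGCG of NRF1, a factor known to bind respiratory chain promoters, was found in 20 of the 67 (29.9%), against 7.03% of 27025 genes. The ETS motif CCGGAAG, to which GABPA can bind, was found in 16 (23.9%), against 9.93% of genes. The YY1 motif AANATGGC was also in 16, of which 12 were among the 33 complex I promoters, against 6.96% of genes. The motif TCAAGGTCA of estrogen-related receptors was in 2 members (2.99%), against 0.466% of genes. Of the members higher at 24 h, 3 of 10 matched promoters held the NRF1 motif, and of the lower ones 1 of 5 did, namely Ndufb4. A match is a description of letters and not a bound site, and overlapping palindromes count on both strands. The windows below are those of Uqcrc1, Cox6a1 and Ndufa9, higher at 24 h, and of Ndufb4, lower at 24 h, each 5′ to 3′ on the strand of its gene, with the motif matches in capitals. Uqcrc1 (chr9:108936398-108936697, plus strand) and Ndufb4 (chr16:37654319-37654618, minus strand) hold NRF1 matches, Cox6a1 (chr5:115348909-115349208, minus strand) holds NRF1 and ETS matches, and Ndufa9 (chr6:126849095-126849394, minus strand) holds a YY1 match.
Uqcrc1: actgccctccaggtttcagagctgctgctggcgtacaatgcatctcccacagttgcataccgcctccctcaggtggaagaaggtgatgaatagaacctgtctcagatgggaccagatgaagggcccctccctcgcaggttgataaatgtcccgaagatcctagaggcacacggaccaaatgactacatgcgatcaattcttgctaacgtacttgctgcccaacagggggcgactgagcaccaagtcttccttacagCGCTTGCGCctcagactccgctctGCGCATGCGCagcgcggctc
Cox6a1: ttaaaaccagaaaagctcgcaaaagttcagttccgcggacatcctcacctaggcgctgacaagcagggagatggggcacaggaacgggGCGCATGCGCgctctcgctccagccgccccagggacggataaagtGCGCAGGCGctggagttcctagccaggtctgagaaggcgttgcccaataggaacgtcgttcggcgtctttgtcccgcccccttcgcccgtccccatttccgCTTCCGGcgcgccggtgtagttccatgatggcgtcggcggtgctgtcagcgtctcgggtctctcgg
Ndufa9: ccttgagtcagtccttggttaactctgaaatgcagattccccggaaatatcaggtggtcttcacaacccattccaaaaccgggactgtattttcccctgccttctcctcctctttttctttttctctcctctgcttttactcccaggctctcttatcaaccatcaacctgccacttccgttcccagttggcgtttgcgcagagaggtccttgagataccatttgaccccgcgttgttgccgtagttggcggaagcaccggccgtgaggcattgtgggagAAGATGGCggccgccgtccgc
Ndufb4: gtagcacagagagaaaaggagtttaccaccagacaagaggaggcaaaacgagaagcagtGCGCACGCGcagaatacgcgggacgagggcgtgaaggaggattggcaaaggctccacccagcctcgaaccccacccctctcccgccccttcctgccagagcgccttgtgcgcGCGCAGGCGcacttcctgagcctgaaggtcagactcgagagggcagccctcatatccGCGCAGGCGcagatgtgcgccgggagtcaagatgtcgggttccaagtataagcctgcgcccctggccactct
Uqcrc1, called higher at 12, 18 and 24 h with all libraries kept, and Ndufb4, called lower at 24 h, both carry NRF1 letters near their starts.

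In thymus of mice labelled TAL1, 1 of 79 members was higher than in empty vector thymus and 0 were lower, against 2.16% and 2.88% of 12357 genes. At an unadjusted p under 0.05, 18 members (22.8%) were positive and 0 negative, against 8.79% and 8.8% of all genes, which is 17.6% of all genes in either direction, and DESeq2 called 1 higher and 0 lower. The called member was Ndufab1, at chr7:122085403-122101886 on the minus strand, which encodes the mitochondrial acyl carrier protein, a complex I subunit that also serves lipoate and iron-sulfur cluster synthesis. It had 74.1, 78.6 and 65.8 CPM in TAL1 thymus, against 48.7, 49.9 and 48.0 CPM in empty vector thymus, a log2 fold change of 0.57 (SE 0.13, adjusted p = 0.0225). The groups did not overlap. The adjusted p missed the threshold without TAL1 replicate 1, TAL1 replicate 2, empty vector replicate 2 or empty vector replicate 3, with an adjusted p of up to 0.104.

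Small positive values were spread over all complexes in TAL1 thymus. The median log2 fold change of the 79 members was 0.19, against -0.00 over all genes, and 70 were positive. By complex the median was 0.19 in complex I, 0.13 in complex II, 0.16 in complex III, 0.20 in complex IV and 0.15 in complex V. That of complex II was -0.01 without empty vector replicate 1 and 0.30 without empty vector replicate 3. In 29 of 79 members every TAL1 library lay above every empty vector library and in 0 it lay below, while 11.7% and 11.5% of all genes did so. Ndufb8, a membrane arm subunit of complex I, stood at 105, 111 and 118 CPM in TAL1 thymus, against 86.0, 80.5 and 89.8 CPM in empty vector thymus (log2 fold change 0.38, adjusted p = 0.0749). Uqcr11, a small subunit of complex III, had 75.3, 81.9 and 72.3 CPM in TAL1 thymus, against 53.2, 58.4 and 60.0 CPM in empty vector thymus (0.42, adjusted p = 0.0775). Neither passed the threshold, although in both genes the groups did not overlap.

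Summed over the 85 members, the level was 10998 ± 183 CPM in TAL1 thymus and 9734 ± 524 CPM in empty vector thymus. The 13 mitochondrial genes came to 41744 ± 3651 CPM in TAL1 thymus and 41156 ± 4478 CPM in empty vector thymus, and edgeR called 0 of them, with log2 fold changes of -0.14 to 0.23. The mitochondrial ribosome had 1 of 75 genes higher and a median of 0.15, and the citrate cycle had 0 of 16 called and a median of 0.05. Proliferation genes moved with the label: 11 of 15 were higher, and their summed CPM was 4278 to 5170 in TAL1 thymus and 2732 to 2917 in empty vector thymus. The 12 thymocyte markers summed to 14734 to 16246 CPM in TAL1 thymus and to 11247 to 13345 CPM in empty vector thymus. Myeloid markers, 4 to 6 of 6 with counts, reached 368 CPM in TAL1 replicate 2, against 9.44 to 28.8 CPM in the other mice. Reads in no feature made up 29.8% to 30.3% of reads in TAL1 thymus and 33.0% in every empty vector library. The part of these in the members' levels was not tested.

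In AKT(E17K)+TAL1 thymus against AKT(E17K) thymus, edgeR called 0 of 78 members, and 0 of 9782 genes in either direction (0%). In simulated data for this comparison 1% of log2 changes of 1 were called, so the lack of calls does not show unchanged members. At an unadjusted p under 0.05, 0 members were higher and 4 lower (5.13%), against 3.28% and 3.97% of all genes, and DESeq2 called 1 lower. The median log2 fold change was -0.24, against -0.01 over all genes, and 11 of 78 were positive. It was -0.37 without AKT(E17K)+TAL1 replicate 3 and -0.15 without AKT(E17K)+TAL1 replicate 2. By complex the median was -0.23 in complex I, 0.02 in complex II, -0.34 in complex III, -0.25 in complex IV and -0.30 in complex V. Without AKT(E17K)+TAL1 replicate 2 the medians of complexes I, IV and V were -0.15, -0.13 and -0.14. Without AKT(E17K)+TAL1 replicate 3 those of complexes IV and V were -0.38 and -0.48, and without AKT(E17K) replicate 1 that of complex III was -0.20. In 9 members every AKT(E17K)+TAL1 library lay below every AKT(E17K) library and in 1 it lay above, against 5.72% and 6.18% of all genes.

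Atp5l, subunit g of the membrane part of ATP synthase at chr9:44912557-44920742 on the minus strand, had the smallest p. It stood at 211, 99.2 and 44.3 CPM in AKT(E17K)+TAL1 thymus, against 401, 436 and 282 CPM in AKT(E17K) thymus, a log2 fold change of -1.65 (SE 0.48, adjusted p = 0.527 by edgeR and 0.0275 by DESeq2). Atp5b, the catalytic beta subunit at chr10:128083273-128090391 on the plus strand, had 502, 440 and 494 CPM in AKT(E17K)+TAL1 thymus, against 1239, 960 and 576 CPM in AKT(E17K) thymus (-0.95, adjusted p = 0.597). Both groups were separate for these genes, but the AKT(E17K) mice ranged widely. Ndufs7, an iron-sulfur core subunit of complex I, had 68.7, 80.1 and 79.7 CPM in AKT(E17K)+TAL1 thymus, against 181, 129 and 74.6 CPM in AKT(E17K) thymus, and these overlapped (-0.75). Without AKT(E17K) replicate 1 the log2 fold change was -0.41 for Ndufs7, -0.68 for Atp5b and -1.60 for Atp5l, with adjusted p of 0.936 or more. Among positive values, the smallest p belonged to Cox6b2, Cox7c and Ndufb3.

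The AKT(E17K) experiment had the lowest depth and the widest spread, with a biological coefficient of variation of 35.0%, against 21.95% for the empty vector table and 11.6% for ProT cells. AKT(E17K) replicate 1 held 297.5 summed CPM of stromal and epithelial markers, 6 of 6 with counts, and 74.0 of fat markers, 4 of 5 with counts. The other 5 mice of that table had 4.66 to 15.8 and 0.352 to 3.16 summed CPM. The 6 myeloid markers, 5 or 6 with counts, summed to 776 CPM in that replicate and 73.2 to 329 CPM in the other 5 mice. The 7 erythroid markers, 5 or 6 with counts, summed to 937 CPM in it and 85.3 to 592 CPM in the others, and the 5 erythroid genes tested had a median log2 fold change of -1.12, with 0 called. Without that replicate the members' median was -0.17, and the part of these cells in it was not tested. Other lists also had negative medians, each with 0 genes called. These were the electron carriers (-0.50, 1 of 14 positive), the mitochondrial ribosome (-0.28, 11 of 76) and the cytosolic ribosomal proteins (-0.31, 5 of 83). Smaller negative medians were those of proliferation genes (-0.17, 6 of 15), the citrate cycle (-0.12, 5 of 16) and assembly factors (-0.11, 17 of 44). The regulators (0.03, 7 of 13) and the thymocyte markers (0.20, 8 of 12) had positive medians, also with 0 called.

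**Figure D5:**
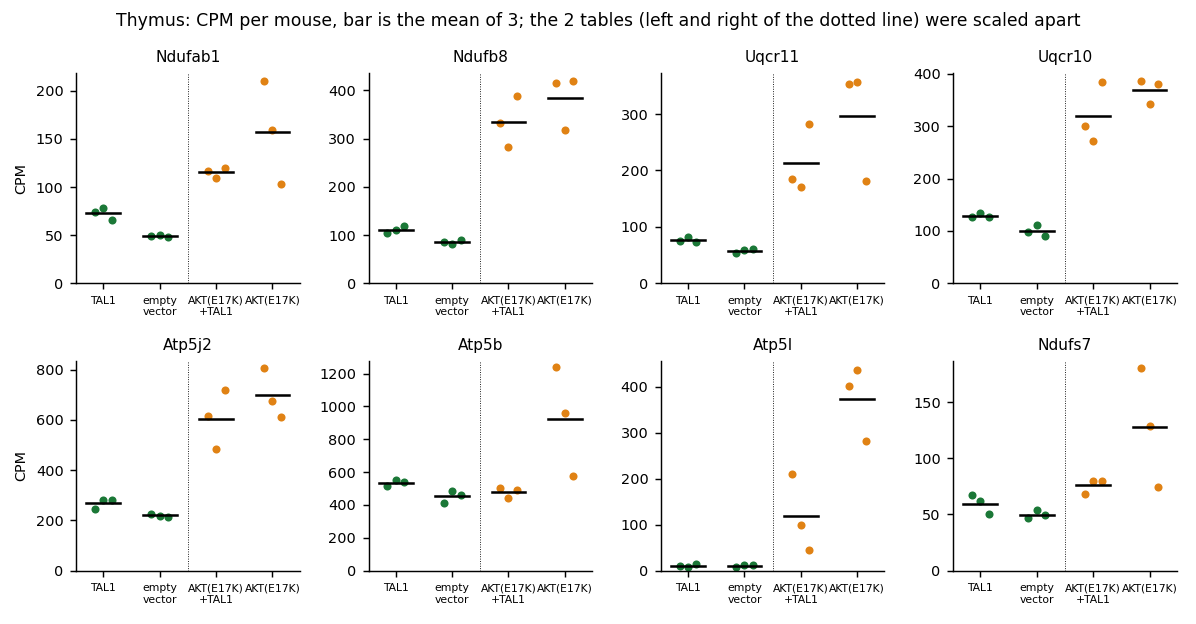
CPM per mouse (vertical axis, from 0) of 8 members in the thymus groups (horizontal axis); points are mice, bars are means of 3, and the tables left and right of the dotted line were scaled apart. Ndufab1 separates TAL1 (65.8 to 78.6 CPM) from empty vector thymus (48.0 to 49.9 CPM), and Atp5l and Atp5b lie lower in AKT(E17K)+TAL1 than in AKT(E17K) thymus without being called.

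Whether the difference with the TAL1 label changed with AKT(E17K) was asked over all 12 mice. Of 81 members tested, 0 were called in edgeR's quasi-likelihood test, against 0.164% of 10947 genes higher and 0% lower. At an unadjusted p under 0.05, 17 (21%) were negative and 0 positive, against 5.19% and 5.67% of all genes, and DESeq2 called 1 lower. The median of the difference was -0.40, against -0.01 over all genes, and 11 members were positive. Atp5b had the smallest p (-1.17, SE 0.31, adjusted p = 0.181), and without AKT(E17K) replicate 3, 4 members were called lower. Calls over all genes without that replicate numbered 173, against 18 with all mice. Without AKT(E17K) replicate 1 the median was -0.32, that of Atp5b was -0.90 (adjusted p = 0.244) and 0 members were called. Ndufa12, an accessory subunit of the NADH arm, had -1.08 (adjusted p = 0.228), and Ndufab1 had -1.002 (adjusted p = 0.241).

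Paralogs that can take the same place in a complex were compared as shares of their set within each library, per kilobase of exon. Subunit c of ATP synthase is encoded by Atp5g1, Atp5g2 and Atp5g3, whose mature proteins are the same. The exon lengths used for them were 4912, 1675 and 2181 bases, and the size of each share depends on these. In ProT cells, Atp5g2 made up 21.5 ± 0.837% of the set at 24 h and 16.7 ± 0.340% at 0 h, and Atp5g3 made up 74.4 ± 0.784% at 24 h and 79.1 ± 0.169% at 0 h (mean ± SD, n = 3). In thymus, Atp5g3 made up 92.8 ± 0.485% with TAL1 and 92.7 ± 0.371% with empty vector. In AKT(E17K)+TAL1 thymus the share of Atp5g2 was 27.2 ± 10.7%, against 39.1 ± 14.7% in AKT(E17K) thymus, and these overlapped. Cox4i1, the common form of subunit 4, made up at least 97.8% of its pair with the lung form Cox4i2 in every library.

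Per kilobase of exon, Cox6a1 had the highest mean level among the members in empty vector thymus, at 449.6 CPM per kilobase, followed by Atp5k at 331.8 and Cox6b1 at 304.1. In ProT cells at 0 h the order began with Atp5k at 406.4, Cox8a at 399.8 and Uqcr10 at 349.5. These are short accessory subunits, and the core enzymes stood lower on this scale. The order depends on the exon length used, and other lengths were not tried. That length was 702 bases for Cox6a1, 616 for Atp5k, 4237 for Atp5b and 2181 for Atp5g3. Their coding lengths are 336, 213, 1587 and 423 nt. Of the members, 30 share exon sequence with another gene. Among those named above, this touches Ndufa4l2, Ndufa9, Ndufab1, Ndufb6, Ndufb8, Ndufs1, Cox4i1, Cox5a, Cox6a2, Cox6c, Atp5a1, Atp5d, Atp5f1, Atp5g2, Atp5j and Atp5l, where 2.06% to 39% of the exon sequence is shared, so reads of a partner gene could have been counted or lost there.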

How the data were processed

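The authors deposited whole-number read counts per gene, not normalized, in 3 tables. Per the submitters' processing notes, reads passed through HISAT2, HTSeq, SAMtools and FastQC on the mouse build mm10 (GRCm38). Which versions, annotation and strandedness were used is not given in the sources used here. Per the labels' protocols, RNA came from a Promega Maxwell extraction and standard Illumina libraries. HTSeq summary lines were left out. Reads in no feature made up 29.8% to 33.0% of all reads in the empty vector table and 17.3% to 22.6% in the ProT table. The AKT(E17K) table holds no mitochondrial genes, and 27 symbols changed into dates in each of the other tables were restored.

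Counts were tested per table with edgeR 4.0.16 in R 4.3.3 (TMM, filterByExpr, quasi-likelihood F test, Benjamini-Hochberg over all genes tested, threshold 0.05). The 15 ProT libraries shared 1 fit without a replicate block, and the contrast over 12 mice used symbols unique in both tables, without Uqcrc1, whose symbol stands on 2 rows. CPM uses the total of genes passing the filter times the TMM factor. SE is the absolute log2 fold change over the square root of F. DESeq2 1.42.0, DESeq2 size factors, library totals, no filter, a replicate block and leaving out libraries were alternatives. The fits were tested on simulated data, with the same spread for every gene of a table. In each, 100 genes were changed by 1 and 100 by 0.5 on the log2 scale. Of log2 changes of 1, 43% were called in TAL1 against empty vector thymus. In AKT(E17K)+TAL1 against AKT(E17K) thymus 1% were called, and in ProT cells at 24 h 79%. For log2 changes of 0.5 these shares were 1%, 0% and 15%, and false calls numbered 2, 0 and 3. The adjusted p depends on how many genes change, and the measured ProT data held 2549 calls at 24 h. The simulated shares at 24 h therefore do not give the share found in the measured data. Exon and coding lengths and positions came from GENCODE M21, which held all 85 members, promoters from the RefSeq GRCm38.p6 table.

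Named members are those called where 12 or fewer were, otherwise the 8 with the largest change per direction, the 3 smallest p per direction where none was, core subunits and paralog sets. For some genes that the rule names, values are not reported here. The members and the gene lists were chosen with earlier results of these data known. Lists are described by counts and medians, with no test.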

Additional observations from a re-analysis of the deposited data

Results flagged for a closer look

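The members differed between 6 and 12 h in how far they stood from 0 h. In ProT cells 0 members were called at 6 h and 12 at 12 h. Over all genes 0% were called at 6 h, while 6.33% were higher and 5.69% lower at 12 h. In the direct test of 12 h against 6 h, chosen after the values were seen, 20 of 79 were higher and 0 lower by edgeR's quasi-likelihood test (72 of 79 positive). That test put 5.54% of all genes higher and 5.31% lower. Without the 6 h and the 12 h library that stand apart, 39 were higher and 1 lower. Calls over all genes then rose from 1477 to 2719. Ndufv3 had 123.8, 190 and 199 CPM at 12 h, against 98.1, 98.3 and 108 CPM at 6 h. The part of those libraries in the difference was not tested further. Groups of 3 were too small for a search for single outlying libraries gene by gene.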

How the results depend on the processing

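Counts of called members moved with the scaling, the test, the filter and single libraries. With library totals alone, the 12 h comparison had 34 higher members, the 18 h comparison 11, and the 24 h comparison 23 higher and 2 lower. The DESeq2 test gave 1 lower member in AKT(E17K)+TAL1 against AKT(E17K) thymus, 2 at 24 h and 1 in the contrast over 12 mice. Without the filter, 1 member was lower at 12 h and 1 at 18 h. Without the 6 h and the 12 h library that stand apart, 25 were higher and 1 lower in the 12 h comparison, 13 higher and 3 lower in the 18 h comparison, and 17 higher and 9 lower in the 24 h comparison. In 12 h against 6 h these were 39 and 1, and 44 changed over all times. Calls over all genes rose too, from 1477 to 2719 in 12 h against 6 h and from 2455 to 4471 over all times. They rose from 1635 to 2224 at 12 h, from 1200 to 2061 at 18 h and from 2549 to 3580 at 24 h.

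Leaving out single libraries gave between 2 and 16 higher members at 12 h and between 2 and 8 at 18 h. At 24 h it gave between 8 and 14 higher and 0 to 4 lower members. It gave 8 to 31 higher in 12 h against 6 h with 0 to 1 lower, 16 to 29 over all times, 0 to 2 higher in TAL1 against empty vector thymus, and 0 to 4 lower in the contrast over 12 mice. No other count of members moved from 0 under these. The median of complex V at 6 h became 0.0034 with library totals, that of complex II in AKT(E17K)+TAL1 thymus -0.16 without AKT(E17K) replicate 3, and that of complex IV at 24 h -0.19 without 24 h library 3; these 2 medians reached 0.0397 and 0.145 without other single libraries. Within the spread between replicates, 5 more complex medians crossed 0 without a single library: complex IV at 12 h (-0.002 without 12 h library 2) and 18 h (-0.035 without 18 h library 2), complex III at 18 h (-0.022 without 0 h library 1), complex II at 6 h (-0.074 without 6 h library 1) and complex II in TAL1 thymus (-0.015 without empty vector replicate 1). The cause was not tested.

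Same-numbered ProT libraries were not shown to be paired with 0 h: over all times, 10 of 30 correlations of their deviations were over 0.1, with a range of -0.356 to 0.445. For 6 and 12 h, the 1 of 10 pairs of times where all 3 were over 0.1, they were 0.116 to 0.323, against -0.29 to 0.071 for libraries of different numbers. With the replicate block, 21 members were higher and 0 lower in 12 h against 6 h, 13 higher and 1 lower at 12 h, and 13 higher and 6 lower at 24 h.

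Over all genes, TAL1 against empty vector thymus had 623 calls, and 1107 without the filter. AKT(E17K)+TAL1 against AKT(E17K) thymus had 0 calls, 76 with DESeq2 and 30 without the filter, and the contrast over 12 mice had 18, 186 and 58. The AKT(E17K) table had the lowest depth and, with a biological coefficient of variation of 35.0%, the widest spread.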

Other observations

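Single members took very different shares of the members' counts in the tables, which were not tested against each other. Atp5l made up 1.79% of the members' counts in AKT(E17K) thymus and 0.107% in empty vector thymus, and Cox5a made up 1.46% and 0.164%. In the other direction, Sdhd made up 0.00767% in AKT(E17K) thymus and 0.208% in empty vector thymus, and Ndufa1 0.0671% and 0.943%. Pseudogene rows near such genes held reads too: Atp5l2-ps had 216 to 720 counts per ProT library and 8 to 39 per library of the empty vector table, and Atp5l-ps1 had 130 to 468 per ProT library and 0 to 5 per library of the empty vector table. Rows of these names are absent among the symbols of the AKT(E17K) experiment.

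Ndufa4l2, the paralog of Ndufa4, had 0 counts in the empty vector table. Per kilobase of exon it made up 33.1% of the pair in AKT(E17K)+TAL1 thymus and 36.2% in AKT(E17K) thymus, and 6.98% at 24 h and 4.25% at 0 h in ProT cells.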
